A study of Mus musculus with 6 samples.

Results

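Transcripts of 32 genes of fatty acid oxidation were followed in mouse bone marrow stromal cells (BMSCs), the plastic-adherent marrow fraction from which both osteoblasts and adipocytes arise. The genes are a fixed list of the carnitine shuttle, mitochondrial beta oxidation and peroxisomal beta oxidation, with 1 transcription factor, and all 32 were measured among 19938 tested genes. Cells came from C57BL/6 mice 6 months old, either wild type (WT, 3 arrays) or knockout for the microRNA miR-188 (KO188, 3 arrays). All cells were kept in osteogenic medium holding 10 mM beta-glycerophosphate, 0.05 mM ascorbate-2-phosphate, 100 nM dexamethasone and 10% serum. The labels do not say how the knockout was made, in which cells it acts, or whether each array is a separate mouse or culture, so p-values measure only the spread between these samples, which may be technical. No batch is named, so genotype and any culture difference shared by the KO188 arrays cannot be told apart. In such bulk samples fewer cells of a type and less RNA per cell cannot be told apart either.

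Fatty acids are oxidised in a pair of compartments. Mitochondria take up long chains as carnitine esters and shorten them through repeated rounds of dehydrogenation, hydration, dehydrogenation and thiolysis, passing electrons to the respiratory chain and acetyl-CoA to the citric acid cycle. Peroxisomes shorten very long and branched chains with their own oxidases, bifunctional enzymes and thiolases, and export the shortened products as carnitine esters or free acids. Osteoblast lineage cells are known to use fatty acids beside glucose as fuel, and the PPAR nuclear receptors are known to drive many genes of both routes.

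The missing microRNA has the mature sequences below, from RefSeq (GRCm38.p6, minus strand, chrX:7248031-7248051 and chrX:7247992-7248012), shown because they define the genotype. Capitals mark the seed, bases 2 to 8.
mmu-miR-188-5p: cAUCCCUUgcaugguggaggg
mmu-miR-188-3p: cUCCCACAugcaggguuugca
The Mir188 probe set stood at 7.15 ± 0.01 (SD, n = 3) in WT and 7.08 ± 0.05 in KO188 (limma adjusted p = 0.235), and since the part of the locus that it reads is unknown here, it does not check the labels.

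The largest changes among the 32 genes were in peroxisomal enzymes, and they ran in both directions. Levels are log2 values of 1 probe set per gene, and a change is KO188 minus WT on that scale. Of 32 members 15 passed the test (limma, adjusted p below 0.05), or 46.9% against 29.8% of all tested genes. In KO188 7 were higher, with 13.3% of all genes higher, and 8 were lower, with 16.5% of all genes lower. With each array centred on its median the split was 5 higher and 13 lower, and over all tested genes 2007 higher and 4505 lower. With quantile normalization it was 7 higher and 13 lower, and over all tested genes 2515 and 3920. Only 4 of the 15 changed by 0.3 or more on the log2 scale, and all 4 belong to the peroxisomal group (Hsd17b4, Acaa1a, Crot and Decr2). The other 11 changes were under 0.3. Over the 32 members the median change was -0.03, against -0.01 over all tested genes. The probe set levels of 30 of 32 members lay above the 50th percentile of tested genes. Of all tested genes above the receptor guide, 41.1% passed, and of the 30 members above it 50% did. The receptor guide (6.72) is the level below which 95% of 1194 odorant and vomeronasal receptor genes lay, taken as a rough mark for transcripts that are not expressed. It was passed in neither group by Ehhadh and Ppara.

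**Figure D1:**
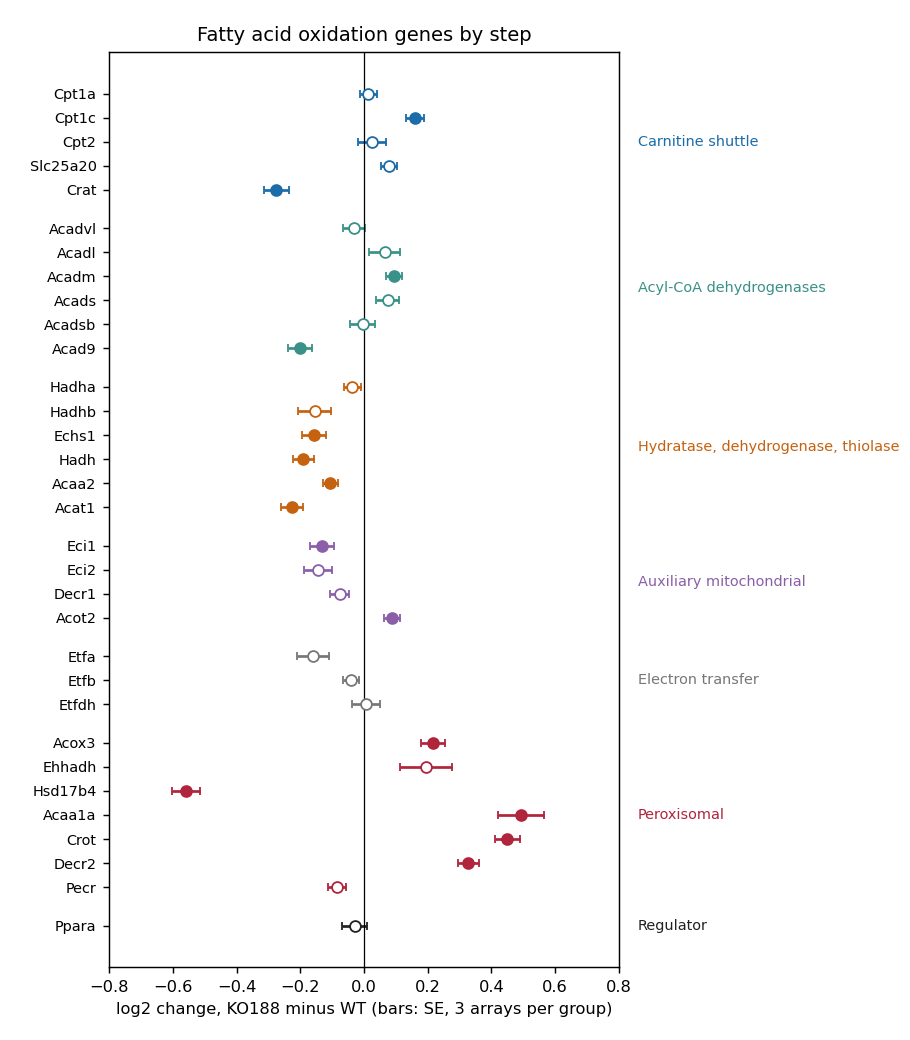
Log2 change between KO188 and WT (horizontal axis) for the 32 fatty acid oxidation genes, grouped by step, with bars for the SE of the limma fit (3 arrays per group). Filled points passed the test and open points did not; the peroxisomal genes spread from -0.56 to 0.49, and the mitochondrial and shuttle genes from -0.27 to 0.16.

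Of the 7 peroxisomal members 4 rose, 1 fell and 2 did not pass, with a median change of 0.22. The share called was 71.4%, against 29.8% of all tested genes and 41.1% of those above the receptor guide. Hsd17b4 encodes the D-bifunctional protein, which hydrates and dehydrogenates very long, branched and bile acid side chains. It stood at 9.81, 9.89 and 9.92 on the WT arrays and at 9.38, 9.27 and 9.29 on the KO188 arrays. Every KO188 array was below every WT array, as for 22.7% of all tested genes. Hsd17b4 fell by 0.56 (SE 0.043, limma adjusted p = 1.6e-04), a level 1.47-fold lower. Ehhadh, which encodes the other bifunctional enzyme of the peroxisome, was dim on all arrays (6.07 to 6.36 in WT and 6.36 to 6.52 in KO188). Its groups overlapped and the change of 0.19 (SE 0.082) did not pass (adjusted p = 0.134).

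Acaa1a, the thiolase gene of the last peroxisomal step, read 8.59, 8.62 and 8.83 in WT and 9.15, 9.26 and 9.11 in KO188. The groups did not overlap, although WT replicate 3 lay well above the other WT arrays. Acaa1a rose 1.41-fold, by 0.49 on the log2 scale (SE 0.073, adjusted p = 0.0028), and by 0.57 with WT replicate 3 left out. Acaa1b is a near-identical copy whose own probe set lay under the receptor guide (5.83 in WT, 5.78 in KO188), and how far the Acaa1a probes also read it is uncertain. Acox3, an acyl-CoA oxidase gene for branched chains at the entry step, read 8.71, 8.60 and 8.68 in WT and 8.91, 8.88 and 8.85 in KO188. All KO188 arrays were above all WT arrays, as for 18.8% of all tested genes, and Acox3 rose by 0.22 (SE 0.038, adjusted p = 0.0053).

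Crot encodes carnitine octanoyltransferase, which turns chains shortened in the peroxisome into carnitine esters for export. It read 10.36, 10.39 and 10.48 in WT and 10.87, 10.89 and 10.82 in KO188, with a gap between the groups wider than the range of either. Crot rose 1.37-fold, by 0.45 on the log2 scale (SE 0.040, adjusted p = 3.0e-04). Decr2, the peroxisomal dienoyl-CoA reductase gene for unsaturated chains, read 9.99, 10.00 and 10.07 in WT and 10.33, 10.38 and 10.31 in KO188. The groups were again apart, and Decr2 rose 1.26-fold, by 0.33 (SE 0.034, adjusted p = 6.0e-04). Pecr encodes a peroxisomal enoyl-CoA reductase used in chain elongation and phytol breakdown. It read 8.69 to 8.72 in WT and 8.59 to 8.65 in KO188, and its change of -0.08 did not pass (adjusted p = 0.072), though it did with median centring (0.032) and with quantile normalization (0.016). The calls of Hsd17b4, Acaa1a, Crot, Decr2 and Acox3 held with each of the 6 arrays left out in turn.

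**Figure D2:**
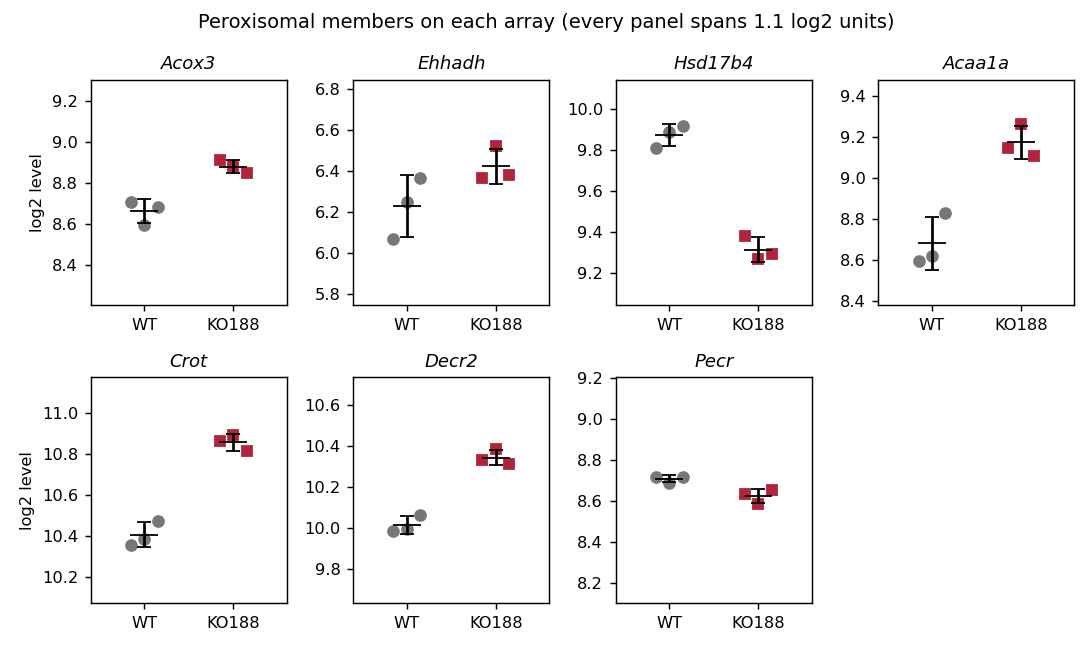
Log2 level (vertical axis) of the 7 peroxisomal members on each of 3 WT arrays (grey circles) and 3 KO188 arrays (red squares), with the mean and SD of each group in black; every panel spans the same number of log2 units. Acox3, Acaa1a, Crot and Decr2 lie higher in KO188, Hsd17b4 lies lower, and the Ehhadh groups overlap.

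RefSeq promoters of the 4 peroxisomal genes that rose are printed here because they belong to the members with the clearest rise. Each shows 250 bases before the start (GRCm38.p6). Capitals mark the GC box letters GGGCGG and the CCAAT box letters CCAAT, both searched on either strand; where GC boxes overlap, their capitals run on.
Crot (chr5:8997147-8997396, minus strand): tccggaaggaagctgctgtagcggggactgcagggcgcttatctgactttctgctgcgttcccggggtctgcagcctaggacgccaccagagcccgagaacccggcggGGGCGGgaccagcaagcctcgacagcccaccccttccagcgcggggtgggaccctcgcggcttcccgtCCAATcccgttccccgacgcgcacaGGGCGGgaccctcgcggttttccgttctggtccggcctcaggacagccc
Decr2 (chr17:26090165-26090414, minus strand): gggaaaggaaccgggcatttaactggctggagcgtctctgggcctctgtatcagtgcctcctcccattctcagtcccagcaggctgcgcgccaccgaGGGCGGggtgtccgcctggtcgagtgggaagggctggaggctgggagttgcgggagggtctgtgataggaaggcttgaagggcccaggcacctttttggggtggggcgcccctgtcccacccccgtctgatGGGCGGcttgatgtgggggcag
Acaa1a (chr9:119341044-119341293, plus strand): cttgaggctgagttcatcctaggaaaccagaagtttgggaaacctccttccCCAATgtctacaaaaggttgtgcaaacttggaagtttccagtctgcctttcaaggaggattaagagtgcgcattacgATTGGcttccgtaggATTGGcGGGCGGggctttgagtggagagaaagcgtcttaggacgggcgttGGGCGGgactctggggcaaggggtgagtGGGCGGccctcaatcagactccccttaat
Acox3 (chr5:35582784-35583033, plus strand): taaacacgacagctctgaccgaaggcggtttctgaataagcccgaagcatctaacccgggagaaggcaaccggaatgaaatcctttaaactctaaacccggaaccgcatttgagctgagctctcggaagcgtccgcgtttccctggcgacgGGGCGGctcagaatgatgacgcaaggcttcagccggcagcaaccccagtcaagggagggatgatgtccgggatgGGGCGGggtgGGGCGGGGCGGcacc
All 4 windows hold at least 1 GC box, from 2 in Crot and Decr2 to 3 in Acaa1a and 4 in Acox3. So did 20 of the 26 members with a promoter in the table, and 32.7% of all 32851 promoters. Those promoters were not limited to tested or expressed genes, so they are a set unlike the members. The CCAAT box stands in Crot and Acaa1a, in 12 of 26 members and in 33.8% of all promoters. The letters AGGTCANAGGTCA, a paired nuclear receptor element of the kind PPARs bind, are in 0 of the 26 member windows and in 0.0335% of all promoters. A single AGGTCA, which the paired element contains, is in 14.0% of all promoters and in 5 members, Acadm, Acadvl, Cpt1a, Cpt1c and Echs1. The paired element in this exact spelling is so rare that 0 of 26 windows says nothing about PPAR binding. These matches describe letters in these windows only.

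In the carnitine shuttle the gene of the controlling enzyme did not pass the test. Of 5 members 1 rose, 1 fell and 3 did not pass, with a median change of 0.03. The share called was 40%, against 29.8% of all tested genes and 41.1% of those above the receptor guide. Cpt1a, whose product loads long chains onto carnitine at the outer mitochondrial membrane and sets the rate of uptake, read 11.29, 11.28 and 11.30 in WT and 11.34, 11.29 and 11.28 in KO188. The groups overlapped, and the change was 0.01 (SE 0.027, adjusted p = 0.757). Cpt2, which encodes the partner enzyme of the inner membrane, changed by 0.03 (adjusted p = 0.733). Slc25a20, the carnitine-acylcarnitine carrier gene, read 9.13 to 9.16 in WT and 9.20 to 9.24 in KO188. Its groups did not overlap, but the change of 0.08 did not pass (adjusted p = 0.064).

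Crat, the carnitine acetyltransferase gene, whose product handles short chains in mitochondria and peroxisomes, read 10.71, 10.68 and 10.81 in WT and 10.47, 10.44 and 10.46 in KO188. Every KO188 array was lower, and Crat fell by 0.27 (SE 0.040, adjusted p = 0.0025). Cpt1c is a relative of Cpt1a known mainly from brain, with little acyltransferase activity. It read 9.51, 9.47 and 9.52 in WT and 9.69, 9.65 and 9.64 in KO188. Every KO188 array was higher, and Cpt1c rose by 0.16 (SE 0.028, adjusted p = 0.0057).

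The acyl-CoA dehydrogenases open each mitochondrial round for chains of a given length. Of 6 members 1 rose, 1 fell and 4 did not pass, or 33.3% called. Of all tested genes 29.8% were called, and of those above the receptor guide 41.1%. Acadvl (very long chains, -0.03), Acadl (long chains, 0.06), Acads (short chains, 0.07) and Acadsb (short branched chains, -0.00) had overlapping groups and did not pass. Acad9, whose product also helps assemble respiratory complex I, read 9.70, 9.66 and 9.78 in WT and 9.50, 9.55 and 9.48 in KO188. All KO188 arrays were lower, and Acad9 fell by 0.20 (SE 0.038, adjusted p = 0.0076). Acadm, the medium-chain enzyme gene, rose by 0.09 (SE 0.026, adjusted p = 0.033). The Acadm call held without WT replicate 3 (adjusted p = 0.042). It was lost without WT replicate 1 (0.104), WT replicate 2 (0.088), KO188 replicate 1 (0.057), KO188 replicate 2 (0.082) or KO188 replicate 3 (0.053). With each array centred on its median the change was 0.05 (0.233).

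Genes of the later mitochondrial steps that passed the test were lower in KO188, by small amounts. Of 6 genes for the hydratase, hydroxyacyl-CoA dehydrogenase and thiolase steps, 4 fell, 0 rose and 2 did not pass, with a median change of -0.16. The share lower was 66.7%, against 16.5% of all tested genes and 23.1% of those above the receptor guide. All 6 changes were below 0 with non-overlapping groups, where 22.7% of all tested genes had every KO188 array below every WT array. All stayed below 0 under each alternative setting in which the gene was tested. Those settings reuse the same arrays and add no independent support. Hadh, the dehydrogenase gene for short and medium chains, read 12.27, 12.28 and 12.23 in WT and 12.12, 12.04 and 12.05 in KO188. The KO188 arrays were all lower, and Hadh fell by 0.19 (SE 0.032, adjusted p = 0.0048). Acat1 encodes the mitochondrial thiolase of ketone bodies and isoleucine breakdown. It read 11.24, 11.16 and 11.17 in WT and 11.00, 10.94 and 10.95 in KO188, and fell by 0.23 (SE 0.034, adjusted p = 0.0030).

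Echs1, the short-chain enoyl-CoA hydratase gene, read 10.31, 10.27 and 10.39 in WT and 10.20, 10.15 and 10.15 in KO188. The groups were close but apart, and Echs1 fell by 0.16 (SE 0.039, adjusted p = 0.023). Its call was lost without WT replicate 1 (adjusted p = 0.063), KO188 replicate 2 (0.071) or KO188 replicate 3 (0.076). Acaa2, the mitochondrial thiolase gene, fell by 0.11 (adjusted p = 0.016), and the call held with each array left out.

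Hadha and Hadhb encode the alpha and beta subunits of the trifunctional protein, which carries out these steps on long chains. In the RefSeq table the genes lie next to each other, 272 bases apart. Hadha read 11.64 to 11.69 in WT and 11.61 to 11.63 in KO188, a change of -0.04 (SE 0.026, adjusted p = 0.363). Hadhb read 9.97 to 10.03 in WT and 9.74 to 9.91 in KO188, a change of -0.16 (SE 0.051, adjusted p = 0.067). Neither subunit gene passed on the deposited values. Hadhb did pass with median centring (adjusted p = 0.018) and with quantile normalization (0.036). Hadhb was the 1 member with more than 1 probe set, and the other gave -0.15 (adjusted p = 0.077 among all probe sets).

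Auxiliary enzymes prepare unsaturated chains for the cycle or release free acids. Of 4 members 1 fell, 1 rose and 2 did not pass, or 50% called. Of all tested genes 29.8% were called, and of those above the receptor guide 41.1%. Eci1, an enoyl-CoA isomerase gene, read 10.12, 10.06 and 10.11 in WT and 10.03, 9.93 and 9.95 in KO188. The groups were separated by little, and Eci1 fell by 0.13 (SE 0.037, adjusted p = 0.037). The Eci1 call held without KO188 replicate 1 (adjusted p = 0.014) and was lost without WT replicate 1 (0.119), WT replicate 2 (0.056), WT replicate 3 (0.108), KO188 replicate 2 (0.101) or KO188 replicate 3 (0.108). Eci2, an isomerase gene whose product is found in mitochondria and peroxisomes, changed by -0.14 (adjusted p = 0.054). Decr1, the mitochondrial dienoyl-CoA reductase gene, changed by -0.08 (adjusted p = 0.116), and neither passed. Both passed with median centring (adjusted p = 0.018 for Eci2 and 0.028 for Decr1) and with quantile normalization (0.021 and 0.019).

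Acot2 encodes a mitochondrial acyl-CoA thioesterase and rose by 0.09 (SE 0.026, adjusted p = 0.046). The call held without WT replicate 3 (adjusted p = 0.043). It was lost without WT replicate 1 (0.116), WT replicate 2 (0.119) or any KO188 array (0.077 to 0.101). With median centring the Acot2 change was 0.04 (adjusted p = 0.343). Acot1, a near-identical neighbour, had its own probe set under the receptor guide (6.44 in WT, 6.53 in KO188), and how far the Acot2 probes also read it is uncertain.

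Electron transfer flavoprotein takes electrons from the dehydrogenases and hands them to ubiquinone through its own dehydrogenase. Of its 3 genes 0 passed limma's test at the adjusted threshold, against 29.8% of all tested genes and 41.1% of those above the receptor guide. The lowest unadjusted limma p was 0.017, for Etfa. Etfa, the alpha subunit gene, read 10.31 to 10.38 in WT and 10.13 to 10.30 in KO188, a change of -0.16 (SE 0.050, adjusted p = 0.056). With KO188 replicate 1 left out it passed, at -0.21 (adjusted p = 0.0075), as it did with median centring (0.026) and quantile normalization (0.033). Etfb changed by -0.04 (adjusted p = 0.316) and Etfdh by 0.01 (adjusted p = 0.927).

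**Figure D3:**
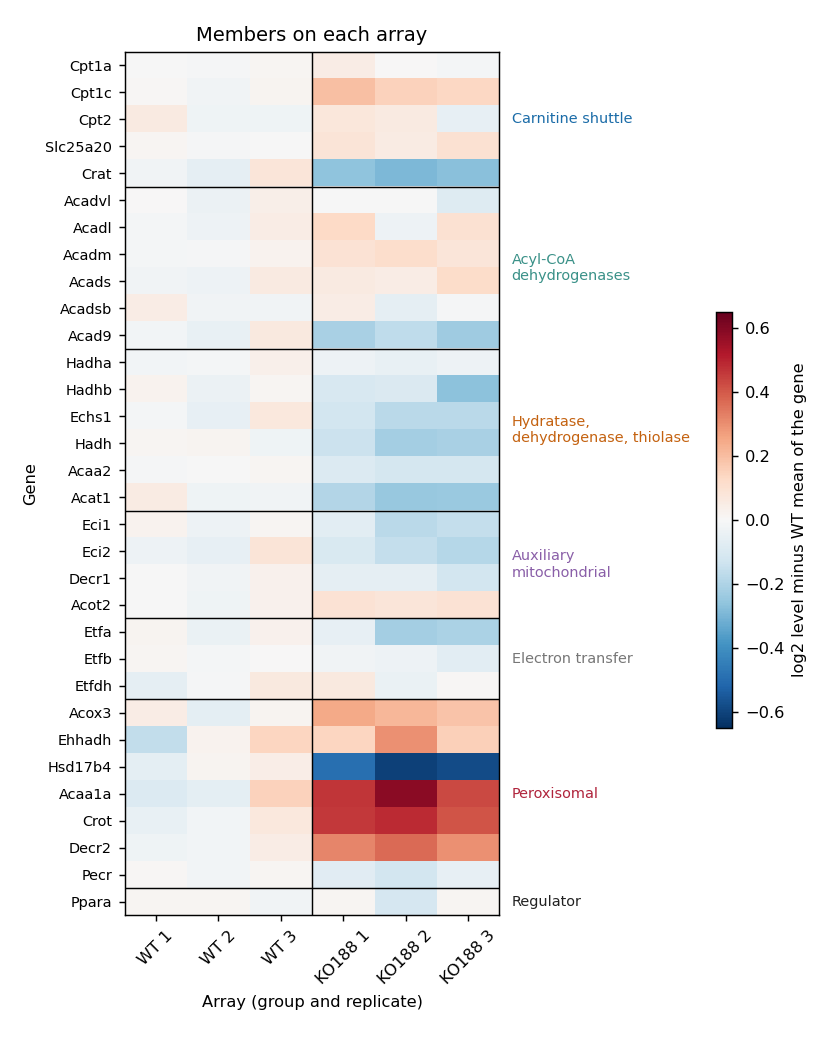
Level of each of the 32 members (rows) on each of the 6 arrays (columns), as the log2 difference from the mean of the gene's 3 WT arrays; red is higher and blue lower. The KO188 columns are red for Acaa1a, Crot, Decr2 and Acox3, dark blue for Hsd17b4, and pale blue through the hydratase, dehydrogenase and thiolase block.

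Over the 24 mitochondrial and shuttle members, 7 fell, 3 rose and 14 did not pass, with a median change of -0.04. Of all tested genes 16.5% fell and 13.3% rose. Of the 13880 genes above the receptor guide 3212 fell and 2489 rose. Over all 32 members, 23 had groups that did not overlap, with 41.5% of all tested genes doing so; 8 of these 23 did not pass the test. Ppara, the PPAR gene best known for driving fatty acid oxidation in liver, read 6.63, 6.63 and 6.60 in WT and 6.63, 6.51 and 6.63 in KO188. The groups overlapped under the receptor guide, and the change was -0.03 (SE 0.039, adjusted p = 0.653).

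Among 21 measured regulators of oxidation genes beside Ppara, 1 rose and 4 fell, or 23.8% called against 29.8% of all tested genes. Ppargc1a, the gene of the coactivator PGC-1alpha, which is known to raise mitochondrial and oxidation genes, read 6.71, 6.60 and 6.56 in WT and 8.43, 8.24 and 8.39 in KO188. The WT arrays lay at or under the receptor guide and the KO188 arrays well above it. Ppargc1a rose by 1.73 (SE 0.063, adjusted p = 5.7e-06), and since its WT level is near the floor of the array the size is inexact. Pparg, the adipogenic PPAR gene, read 9.77, 9.75 and 9.70 in WT and 7.68, 7.99 and 7.97 in KO188, and fell by 1.86 (adjusted p = 1.5e-05). Prkaa2 (an AMP kinase subunit gene) fell by 0.40 and Lpin1 by 0.21. Ppard, the PPAR gene with wide expression, read 11.47 ± 0.04 (SD, n = 3) in WT and 11.44 ± 0.03 in KO188 and did not pass (adjusted p = 0.495). Of 16 measured genes known as PPAR targets 4 rose, 1 fell and 11 did not pass, with a median of 0.01. The share called was 31.2%, near the 29.8% of all tested genes. Vnn1 rose by 1.75 from a WT level under the receptor guide (6.01), and Txnip rose by 1.35. The pyruvate dehydrogenase kinase gene Pdk4 rose by 0.55 and the muscle fatty acid binding protein gene Fabp3 rose by 0.36. Angptl4, named after its value was seen, was the 1 that fell (-0.33, adjusted p = 0.0051).

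Other oxidation genes outside the 32 gave 4 higher and 4 lower of 29 measured, with a median of -0.00. The share called was 27.6%, near the 29.8% of all tested genes. Phyh, the peroxisomal hydroxylase gene that starts the breakdown of phytanic acid, read 8.61, 8.58 and 8.70 in WT and 9.36, 9.34 and 9.38 in KO188. It rose by 0.73 (SE 0.037, adjusted p = 2.7e-05), the largest change of that list. Acot8, a peroxisomal thioesterase gene, rose by 0.44 (adjusted p = 0.0015), Etfbkmt, which encodes a methyltransferase of electron transfer flavoprotein, rose by 0.31, and Acsl4, a long-chain acyl-CoA synthetase gene, fell by 0.30. Abcd2, a peroxisomal fatty acid transporter gene named after its value was seen, rose by 0.29 (adjusted p = 0.0085). The other called genes of the list all fell: Hsd17b10 (-0.19, adjusted p = 0.0043), Acsl5 (-0.15, 0.029) and Hibch (-0.12, 0.042). Other peroxisomal genes of the list did not pass, among them Abcd3 (0.08), Amacr (0.02), Hacl1 (-0.00) and Scp2 (-0.02), also named after their values were seen. Of 17 measured genes of peroxisome biogenesis and content, 2 rose and 2 fell, or 23.5% called against 29.8% of all tested genes. Pex11a, which encodes a membrane protein of peroxisome division, rose by 0.43 (adjusted p = 3.4e-04) and Pex16 by 0.15, while Pex3 fell by 0.14 and Cat (catalase) by 0.12.

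Genes downstream of mitochondrial oxidation that passed were nearly all lower. Of 19 measured citric acid cycle genes 12 fell (63.2%) and 0 rose, with a median of -0.15. Of all tested genes 16.5% fell, and of those above the receptor guide 23.1%. The largest change was in Idh3a, an isocitrate dehydrogenase subunit gene, which fell by 0.42. Of 22 respiratory chain genes 14 fell (63.6%) and 1 rose (Cox15, 0.30), with a median of -0.12. The largest change of that list was in Ndufb5 (-0.33, limma adjusted p = 9.0e-04). The opposing pathway, fatty acid synthesis, had 11 of 15 genes lower (73.3%) and 0 higher, with a median of -0.40. Fasn, the fatty acid synthase gene, fell most, by 0.71. Among 8 genes listed for odd-chain and ketone metabolism 3 fell and 0 rose, or 37.5% called against 29.8% of all tested genes. They were Acss2 (-0.40), Oxct1, the ketone body transferase gene (-0.20), and Pccb (-0.18). The change of Acss2 equals the median of the synthesis list, so these lists appear to share that gene. These medians are descriptions, and no difference between lists was tested.

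**Figure D4:**
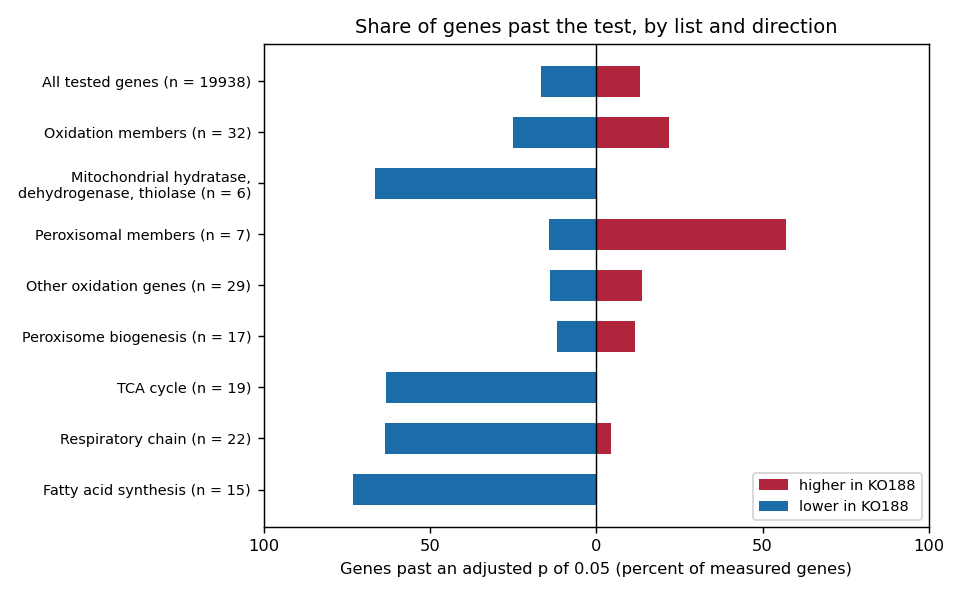
Share of measured genes that passed the test (adjusted p below 0.05) in each list, with genes higher in KO188 to the right and lower to the left of 0, in percent; n is the number of measured genes. The peroxisomal members lean to the right (4 higher, 1 lower of 7), while the citric acid cycle (12 lower of 19) and fatty acid synthesis (11 lower of 15) lean to the left.

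Cell type markers were read beside these results. Of 11 stromal and osteoblast markers, Ibsp was below the receptor guide in WT and KO188 and Sp7 in WT only (6.41 in WT, 6.77 in KO188), and the rest lay above it. In KO188 7 of the 11 were higher and 1 was lower, with 13.3% of all tested genes higher and 16.5% lower. Alpl rose by 2.08 and Pdgfra by 0.87, while Nt5e fell by 0.85. Their summed linear level was 25216 to 25973 in WT and 31648 to 31858 in KO188. Of 8 adipocyte markers 2 fell (Pparg and Fabp4) and 0 rose, and their sum was 1842 to 1896 in WT and 1179 to 1270 in KO188. Without Pparg the sums overlapped (1011 to 1034 and 957 to 1016), and Adipoq, Lep and Adig were under the guide on average in WT and in KO188. Of 10 macrophage markers 6 were likewise under it, Ptprc, Adgre1 and Csf1r among them, and the sum was 1150 to 1169 in WT and 1198 to 1256 in KO188. Of these 10 markers 1 passed, Mpeg1, which rose by 1.32 (adjusted p = 2.2e-04) from a WT level under the guide (5.72 in WT, 7.04 in KO188). Among the 10 changes 6 were below 0, with a median of -0.02. Osteoclast marker sums were 996 to 1011 and 1226 to 1330, where Ctsk alone passed (0.88). Among the 7 osteoclast changes 4 were below 0, with a median of -0.01. The macrophage and osteoclast sums were not repeated without Mpeg1 and Ctsk. Erythroid and megakaryocyte sums were 5464 to 5578 and 2859 to 3009, but overlapped without Ppbp (579 to 625 and 582 to 645). Granulocyte, lymphocyte and endothelial sums overlapped between the groups. The part of these cell types in the changes of oxidation genes was not tested.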

How the data were processed

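Each of 6 arrays gave the authors' deposited log2 value for each of 35556 probe sets. Per the submitters' processing notes, RMA, Partek and Affymetrix Expression Console were used, with no version, role or order given; the genome build and the probe annotation behind the values are not stated there. RMA compresses dim values, so changes of dim genes are understated. Array medians ran from 7.43 to 7.50, and small changes depend on scaling. Arrays correlated at r = 0.9988 to 0.9993 within and 0.9909 to 0.9912 between groups, across genes, which are not independent replicates. The number of arrays limits the precision.

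Probe sets were named through GEO's platform annotation: 21789 have 1 symbol, 1621 have several and were not used, and 12146 are not listed. For each gene the probe set with the highest mean over 6 arrays was taken, with no filter on dim genes. All 32 members matched a RefSeq gene by Entrez identifier, with 0 symbols changed; 26 had a promoter sequence.

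The difference KO188 minus WT was fitted in R 4.3.3 by limma 3.58.1 (lmFit, eBayes, all 6 arrays, no covariate), with Benjamini-Hochberg adjustment over 19938 genes and a threshold of 0.05. On simulated arrays with the spread of these, shifts of 0.15, 0.3, 0.6 and 1.2 on the log2 scale were found in 12%, 62%, 88% and 100% of 50 genes each, and 6 of 137 calls were false. In that simulation 50 genes per shift were moved among 19938, far fewer than the 5937 called here, so its adjusted threshold was stricter. The rates therefore do not carry over to the real fit, where small changes can still be missed. Same-numbered WT and KO188 arrays did not deviate together (r = 0.02, 0.01 and -0.03), so the arrays were not paired. Alternatives were 2 scalings, a filter on dim genes, 2 ways of treating probe sets, a variance trend, array weights, a replicate block, each array left out, and genes with tied values left out, the last chosen after seeing the data.

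Members, lists and tests were chosen with earlier results of these data known. By rule all members are named, with each array's value for the 12 largest changes past the threshold and for Cpt1a and Ppara, and up to 4 genes past the threshold of each other list. Python 3.11.15 and matplotlib 3.10.9 drew the figures.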

Additional observations from a re-analysis of the deposited data

How the results depend on the processing

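Of the 15 called members, 10 passed limma's test under all 15 alternatives in which they were tested and no call turned its direction; the exceptions, Acadm, Acot2, Echs1, Eci1 and Acaa2, changed by less than 0.2 on the log2 scale. The Acaa2 call ended with the replicate block alone (adjusted p = 0.075). Of the 17 others, 6 passed under some alternative: Hadhb, Eci2, Decr1, Etfa and Pecr under both scalings and without the dimmer genes, and Slc25a20 without the dimmer genes (adjusted p = 0.021). The count of lower members was 8, and 13 with each array centred on its median, 13 with quantile normalization and 13 with genes below the 50th percentile left out. Over all 19938 genes 3294 were lower, and 4505 and 3920 with those 2 scalings. Leaving out the dimmer genes left 9969 genes and 30 of the members. Of these 9969 genes 3623 were lower, and 62.4% passed in either direction. With 1 array left out the count of lower members ran from 6 to 9, the count of higher members from 5 to 7 and all calls from 11 to 14. The members' median of -0.03 was -0.074 with median centring and 0.0018 with tied genes left out (chosen after seeing the data), and -0.042 to -0.012 with 1 array left out. Over all genes 44.5% of calls were higher, and 30.8% with median centring. The median change of all genes was -0.0053, and -0.049 with median centring. With the replicate block, for which arrays share only a number, 11 members passed (5 higher, 6 lower) and 5019 of all genes in place of 5937; not every array correlated best with its own number. Signs turned only for members that did not pass: Cpt1a (-0.030 with median centring; -0.0034 to 0.027 with 1 array left out), Cpt2 (-0.019 with median centring, -0.00090 with array weights), Acadsb (-0.031 to 0.022 with 1 array left out), Etfdh (-0.037 with median centring; -0.023 to 0.040 with 1 array left out) and Ppara (-0.048 to 0.011 with 1 array left out). The cause was not tested.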

Other observations

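Identical values recurred between arrays. Of the 19938 tested genes 5285 (26.5%) had the same deposited value on at least a pair of arrays of 1 group, and so did 6 of the 32 members: Acadvl, Hadha, Acaa2, Decr1, Acot2 and Ppara. The level of Ppara was the same on 4 of the 6 arrays. With all such genes left out, 37.5% of the remaining 14653 genes passed the test in place of 29.8%.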
